A study of Arabidopsis thaliana with 21 samples.

Results

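LHY (AT1G01060), CCA1 (AT2G46830), ASG4 (AT1G01520) and RVE7 (AT1G18330) encode MYB-related transcription factors of the plant circadian clock, and their transcripts were followed through the first 24 h of deacclimation, the loss of cold acclimation in the warm. These 4 genes were chosen by their locus codes with earlier results of these data known. Each is represented by 1 of the 31329 probe sets analysed. All 4 probe sets were named only through the study's list of transcripts that it called changed. A call in at least 1 comparison with cold acclimated plants therefore came with the naming. Calls in those comparisons and ranks among all probe sets are given as descriptions.

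Rosettes of Arabidopsis thaliana Columbia-0, the wild type that all groups share, were measured in 7 groups of 3 arrays. All plants grew for 3 weeks in days of 8 h and for 1 week in days of 16 h, in a greenhouse of 20 °C (18 °C at night) with 200 µmol light per square metre and second or more. Non-acclimated (NA) plants had no cold treatment, cold acclimated (CA) plants spent 3 d at 4 °C in 16 h days at 90 µmol, and deacclimated plants were returned from there to the warm for 2, 4, 6, 12 or 24 h. Plants gained both light and warmth on transfer, so the effects of light and of warmth cannot be told apart. Each array held RNA from a pool of 10 plants from 1 of 3 independent biological replicates. For no group was the hour of harvest stated in the sources used here. Material was collected only by day, according to the paper, and not in the dark. The paper speaks of a transfer in the morning, so hours of deacclimation and time of day cannot be told apart either, and no group stayed in the cold through the same hours.

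In Arabidopsis, CCA1 and LHY are closely related repressors whose transcripts peak around dawn. Their proteins bind the promoters of evening genes, and pseudo-response regulators in turn repress CCA1 and LHY, which closes a loop. RVE7, also known as EPR1, is a relative that CCA1 and LHY regulate and that was described as part of a subordinate oscillator. ASG4, also known as RVE3, belongs to the branch of the family around RVE8. In Arabidopsis kept in the cold, clock transcripts swing less between day and night.

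Array medians lay between 8.11 and 8.28 on the log2 scale, apart from 8.43 for replicate 1 at 2 h, and arrays of the same group correlated at 0.984 or above. Of 10 rosette leaf markers 2 were measured. RCA lay at the 95.8th to 98.3rd percentile and LHCB2.1 at the 73.8th to 90.4th percentile of all probe sets. Of 8 root markers 2 were measured, PYK10 between the 50.7th and 84.7th percentile and EXPA7 between the 17.8th and 26.8th. None of 7 flower markers was paired with a probe set. Whether the PYK10 level bears on any value below was not tested.

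LHY was high in cold acclimated plants, low from 4 to 12 h after transfer and high again after 24 h. On the log2 scale of the deposited values, its 3 arrays read 11.43, 11.46 and 11.49 in CA plants and 10.07, 9.54 and 9.37 at 2 h. The arrays read 7.22, 6.86 and 6.85 after 4 h, then 5.30, 5.59 and 6.04 after 6 h and 5.88, 6.63 and 6.25 at 12 h. At 24 h they were back at 11.99, 11.84 and 11.89, beside 11.89, 11.95 and 11.91 in NA plants. No array taken from 2 to 12 h reached the lowest CA array. The arrays are of whole rosettes, so that fewer cells with the transcript and less transcript per cell cannot be told apart.

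Differences were tested with limma. A call needed both a Benjamini-Hochberg adjusted p below 0.05 and a log2 change over 1, which is a 2-fold change. Against CA plants LHY fell by 1.80 at 2 h (95% interval -2.23 to -1.37, adjusted p = 1.72e-05) and by 4.48 at 4 h (-4.91 to -4.05, adjusted p = 1.31e-09). The fall was 56.4-fold at 6 h, a log2 change of -5.82 ± 0.20 (SE, n = 3 per group), and 36.9-fold at 12 h. Only 2 of the 31329 probe sets fell further than LHY at 6 h. The step from 2 h to 4 h, a log2 change of -2.68, was the lowest of all probe sets for that interval (adjusted p = 8.87e-06). LHY fell once more between 4 h and 6 h, by 1.34 (adjusted p = 0.0141). That call was lost when replicate 1 or 3 of the 4 h group or replicate 1 or 2 of the 6 h group was left out, with adjusted p-values of 0.051 to 0.103.

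In the order of its group means LHY was highest in NA plants (11.92 ± 0.03, SD, n = 3), followed by 24 h (11.91 ± 0.08), CA (11.46 ± 0.03), 2 h (9.66 ± 0.36), 4 h (6.98 ± 0.21), 12 h (6.25 ± 0.38) and 6 h (5.64 ± 0.37). NA and 24 h did not differ beyond their spread. LHY at 12 h was 0.61 above 6 h (0.18 to 1.04, adjusted p = 0.163), which was not called, and the arrays of both pairs overlapped. The LHY levels of NA and 24 h arrays all lay above those of CA arrays, by 0.46 (0.03 to 0.89, adjusted p = 0.104) and 0.45 (0.02 to 0.87, adjusted p = 0.112), and neither difference was called. Such a lack of overlap was found for 46.1% (NA) and 44.2% (24 h) of all probe sets. The fit pools the LHY spread over all 7 groups, and the SDs from 2 h to 12 h were larger than those of NA, 24 h and CA. Under other settings of the limma fit the adjusted p-values ranged from 0.00777 to 0.1995 (NA) and from 0.0168 to 0.227 (24 h). Both differences stayed under 2-fold there.

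CCA1 was likewise high in cold acclimated plants, low in the hours up to 12 h and high again after 24 h. Its arrays read 12.12, 12.10 and 12.17 in CA plants, 10.39, 10.05 and 10.22 after 2 h, and 8.77, 8.72 and 9.42 at 4 h. They then read 7.84, 6.68 and 7.39 at 6 h and 6.26, 6.98 and 7.55 at 12 h. At 24 h the values were 12.20, 12.10 and 12.17, beside 12.09, 12.00 and 12.13 in NA plants. The CA, 24 h and NA arrays of CCA1 spanned only 12.00 to 12.20, and every array from 2 h to 12 h lay below them.

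Relative to CA plants CCA1 fell by 1.91 after 2 h (adjusted p = 0.000199), and the log2 change was -3.16 after 4 h (adjusted p = 1.22e-06), -4.83 after 6 h (adjusted p = 9.12e-09) and -5.20 after 12 h (adjusted p = 3.08e-09), each ± 0.28 (SE). The last of these was a 36.7-fold fall. Between successive times the difference from 2 h to 4 h was -1.25 (-1.85 to -0.65) and missed the threshold at an adjusted p of 0.0682, while that from 4 h to 6 h was -1.67 and passed it (adjusted p = 0.0348). These calls are marginal. The first was made under 4 of 7 other settings and without replicate 2 at 2 h, and the second was lost when any of 5 of the 6 arrays involved was left out (all but replicate 1 at 6 h), with adjusted p-values of 0.0579 to 0.281. From 6 h to 12 h the CCA1 difference was -0.37 (-0.97 to 0.23) and the arrays overlapped.

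CCA1 levels were ordered 24 h (12.16 ± 0.05, SD, n = 3), CA (12.13 ± 0.04), NA (12.07 ± 0.06), 2 h (10.22 ± 0.17), 4 h (8.97 ± 0.39), 6 h (7.30 ± 0.59) and 12 h (6.93 ± 0.65). The 3 highest groups did not differ from each other beyond the spread, and the step down to 2 h was called. The spread itself was wider at the bottom of the course, with an SD of 0.59 at 6 h and 0.65 at 12 h against 0.04 in CA plants.

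**Figure D1:**
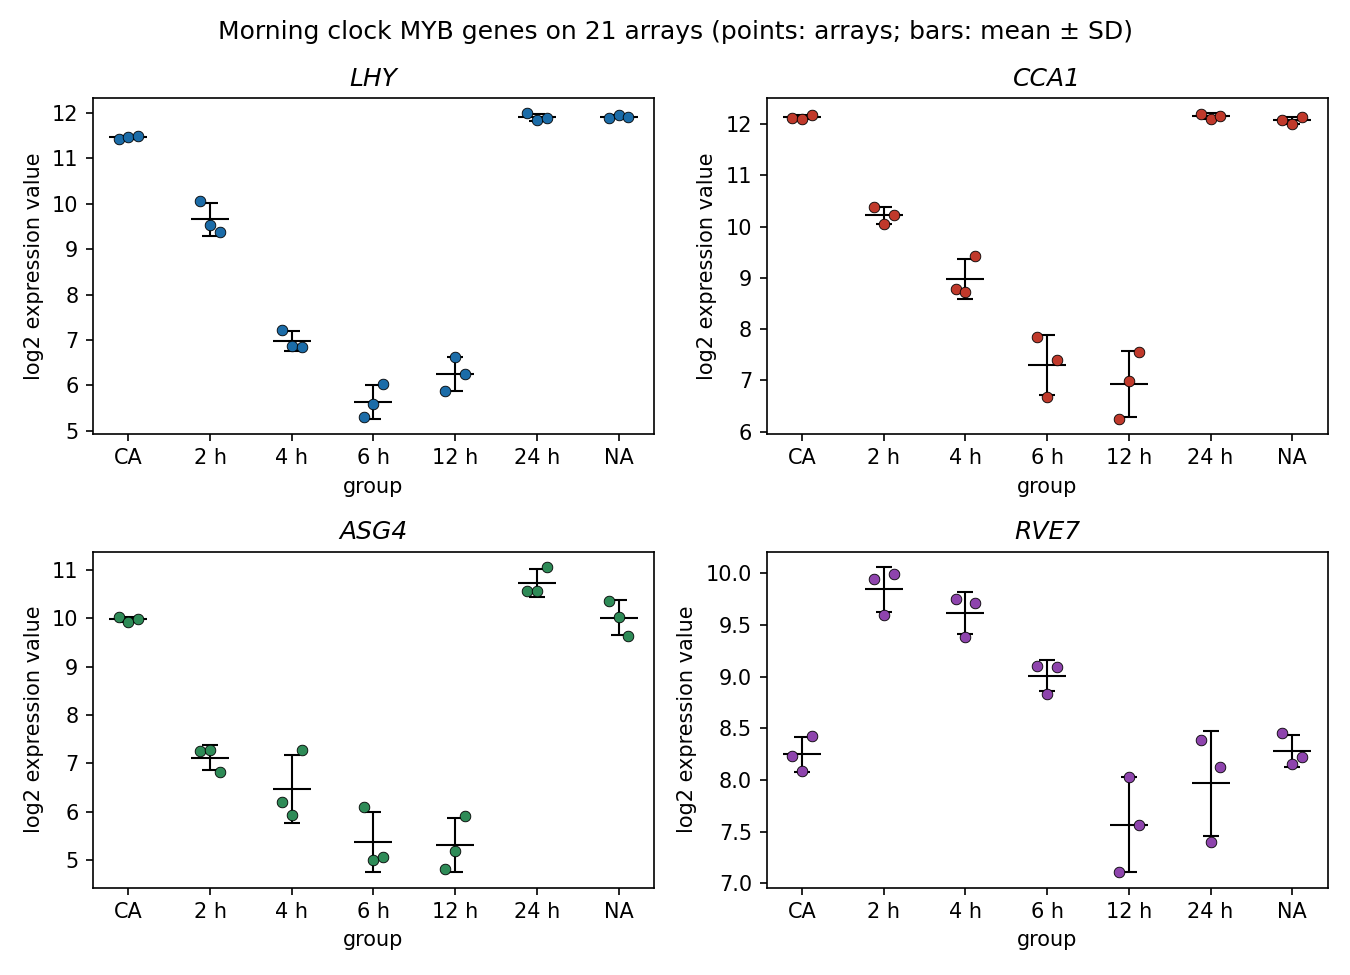
Deposited log2 expression value (vertical axes, 1 scale per gene) of LHY, CCA1, ASG4 and RVE7 in the 7 groups (horizontal axes), with a point per array and the mean ± SD of 3 arrays per group. LHY, CCA1 and ASG4 drop between CA and 6 h and are back at 24 h, whereas RVE7 is highest at 2 h and lowest at 12 h.

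ASG4 had made most of its drop by 2 h. The CA arrays read 10.02, 9.93 and 10.00 and the 2 h arrays 7.26, 7.27 and 6.83. Values were 6.20, 5.94 and 7.27 after 4 h, 6.10, 4.99 and 5.06 after 6 h, and 4.82, 5.19 and 5.92 after 12 h. After 24 h ASG4 stood at 10.57, 10.57 and 11.07, and NA plants gave 10.37, 10.04 and 9.64. Replicate 3 at 4 h was as high as the 2 h arrays, and the 24 h arrays lay above every other array of the gene.

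Against CA plants ASG4 fell by 2.86 ± 0.35 at 2 h (SE, a 7.28-fold fall, adjusted p = 3.56e-05), with log2 changes of -3.51 after 4 h and -4.60 after 6 h, and of -4.68 after 12 h, a 25.6-fold fall (adjusted p = 7.19e-08). Leaving out replicate 3 at 4 h moved the 4 h difference to -3.92. Of the steps between successive times only the return from 12 h to 24 h was called. The ASG4 differences for the earlier steps were -0.65 (-1.39 to 0.09) from 2 h to 4 h, -1.09 (-1.82 to -0.35) from 4 h to 6 h and -0.08 (-0.82 to 0.66) from 6 h to 12 h, with adjusted p-values of 0.442, 0.69 and 0.957, and the arrays overlapped in each. Over the longer interval from 2 h to 6 h ASG4 fell by 1.74 (adjusted p = 0.00698), where 1.61% of all probe sets were called.

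In order, ASG4 levels were 10.74 ± 0.29 after 24 h, 10.02 ± 0.36 in NA plants, 9.98 ± 0.05 in CA plants, 7.12 ± 0.26 after 2 h, 6.47 ± 0.71 after 4 h, 5.38 ± 0.62 after 6 h and 5.31 ± 0.56 after 12 h (SD, n = 3). Of these 6 steps between neighbours only that from CA to 2 h was called.

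RVE7 took another course, up first and then down. Its CA arrays read 8.24, 8.09 and 8.42, and the 2 h arrays 9.94, 9.60 and 10.00. The level was 9.75, 9.38 and 9.71 after 4 h, 9.11, 8.83 and 9.09 after 6 h, and 7.11, 8.03 and 7.56 at 12 h. The 24 h arrays read 8.38, 7.40 and 8.12 and the NA arrays 8.46, 8.16 and 8.22. All arrays of 2, 4 and 6 h lay above all CA arrays, and all 12 h arrays lay below them, the nearest by less than 0.1.

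Relative to CA plants RVE7 rose by 1.60 at 2 h, a 3.03-fold rise (1.11 to 2.09, adjusted p = 0.00018), and by 1.37 at 4 h (0.87 to 1.86, adjusted p = 0.000443). At 6 h the difference of 0.76 (0.27 to 1.26, adjusted p = 0.0213) and at 12 h that of -0.68 (-1.17 to -0.19, adjusted p = 0.0342) passed the p threshold but not that of a 2-fold change. RVE7 fell by 1.44 between 6 h and 12 h (adjusted p = 0.00519), and its level at 12 h was 4.85-fold below that at 2 h (adjusted p = 9.73e-06), a comparison in which 3.13% of all probe sets were called. The order was 2 h (9.85 ± 0.22, SD, n = 3), 4 h (9.61 ± 0.20), 6 h (9.01 ± 0.15), NA (8.28 ± 0.16), CA (8.25 ± 0.17), 24 h (7.97 ± 0.51) and 12 h (7.57 ± 0.46). No pair of neighbours in this order was called for RVE7.

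**Figure D2:**
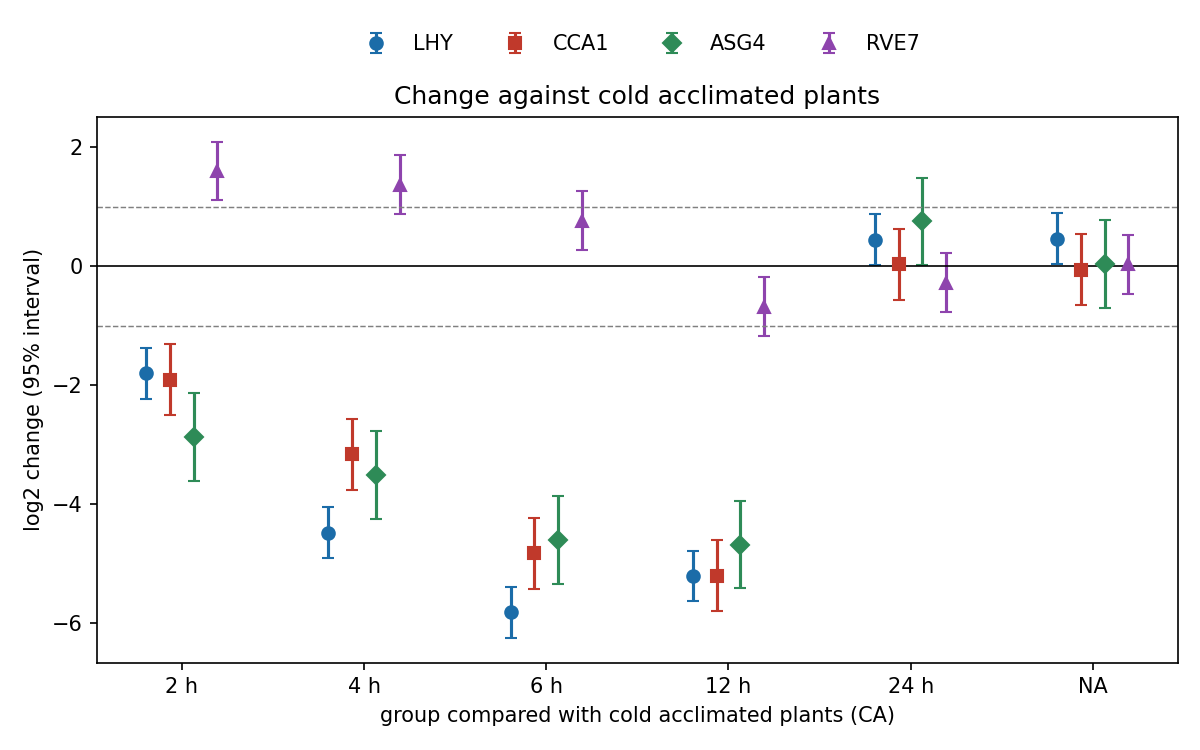
Log2 change of each group against CA plants (vertical axis) for the 4 genes, with 95% intervals from the limma fit, 3 arrays per group, and dashed lines at a 2-fold change in either direction. LHY, CCA1 and ASG4 lie between -1.80 and -5.82 from 2 h to 12 h, and RVE7 lies above 1 at 2 h and 4 h.

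Read against all probe sets, the 4 genes were called at 2 h and at 4 h against CA plants (1 higher and 3 lower), where 4.48% and 5.83% of all probe sets were called in either direction. At 6 h and 12 h LHY, CCA1 and ASG4 were called lower, where 3.56% and 4.76% of probe sets were. No member was called at 24 h or in NA plants, where 8.52% and 7.9% of all probe sets were called against CA plants. The median log2 change of the 4 genes was -1.86, -3.34, -4.71 and -4.94 from 2 h to 12 h, beside medians over all probe sets of 0.06, 0.01, 0.03 and 0.01. The arrays of all 4 genes were free of overlap with the CA arrays from 2 h to 12 h, which held for 33.1%, 42.8%, 46% and 50.5% of all probe sets. All 6 comparisons share the 3 CA arrays.

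**Figure D3:**
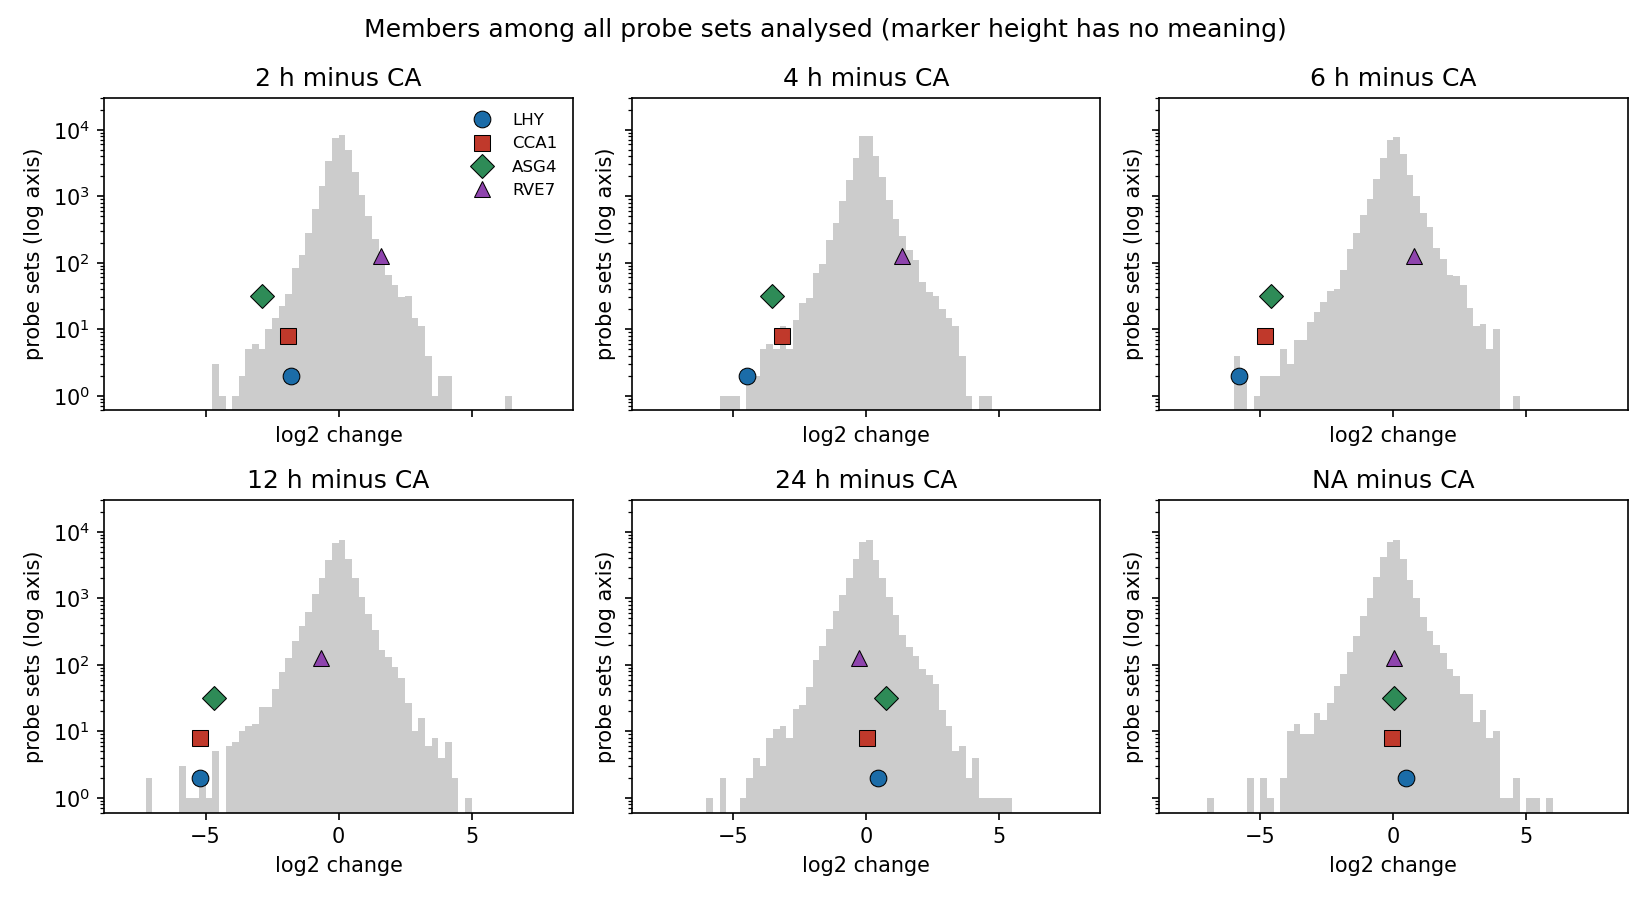
Number of probe sets (vertical axes, log scale) by log2 change against CA plants (horizontal axes) in the 6 comparisons, with the 4 genes marked at their own change. LHY, CCA1 and ASG4 sit in the lower tail from 4 h to 12 h and near the centre at 24 h and in NA plants.

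Against plants that never saw the cold, the calls rest on the same arrays of 2 h to 12 h and are no independent check of those against CA plants. Against NA plants all 4 genes were called at 2 h and 4 h, beside 4.5% and 5.08% of all probe sets in either direction, and LHY, CCA1 and ASG4 were called lower at 6 h and 12 h, beside 3.57% and 2.65%. LHY at 6 h stood 77.4-fold below NA plants, a log2 change of -6.27 that was the lowest of all 31329 probe sets in that comparison (adjusted p = 9.84e-12). RVE7 lay 1.57 above NA plants at 2 h and 1.34 above them at 4 h. These comparisons share the 3 NA arrays.

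Between successive times, LHY was the only gene of the 4 called from 2 h to 4 h (0.163% of all probe sets), LHY and CCA1 were called from 4 h to 6 h (0.0479%), and RVE7 was called from 6 h to 12 h (0.517%). In terms of group means divided by the interval, the LHY difference was -0.90 per hour before 2 h, -1.34 from 2 h to 4 h and -0.67 from 4 h to 6 h. For ASG4 the same quantity was -1.43 in the first interval and -0.33 and -0.54 in the next pair. For CCA1 it was -0.95, -0.63 and -0.83. The largest hourly step was thus the first for ASG4 and CCA1 and the second for LHY, which was not tested as such.

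The return came between 12 h and 24 h, when LHY rose by 5.65 (50.3-fold, adjusted p = 5.97e-11), ASG4 by 5.43 (43.1-fold, adjusted p = 2.91e-08) and CCA1 by 5.23 (37.5-fold, adjusted p = 5.14e-09). These changes ranked 2, 3 and 5 from the highest of all probe sets in that interval, in which 1.59% of probe sets were called higher. The rise rests on the same 12 h arrays as the fall against CA plants and is no independent check of it. The RVE7 difference was 0.40 (-0.09 to 0.90) and was not called. No array was taken between 12 h and 24 h, so when the rise began was not measured.

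At 24 h none of the 4 genes was called against NA plants, a comparison in which only 14 probe sets, 0.0447% of all, were called. For LHY the difference was -0.01 (95% interval -0.44 to 0.42) and for CCA1 0.09 (-0.51 to 0.68), and the arrays of the groups overlapped. For RVE7 it was -0.31 (-0.80 to 0.18), with 24 h arrays from 7.40 to 8.38. ASG4 was 0.72 higher at 24 h (-0.02 to 1.46, adjusted p = 0.577) and its 24 h arrays all lay above the NA arrays. Arrays of these groups were free of overlap, in either direction, for 11.7% of all probe sets. CCA1, ASG4 and RVE7 also did not differ between NA and CA plants beyond the spread, with differences of -0.06 (-0.66 to 0.54), 0.03 (-0.71 to 0.77) and 0.03 (-0.46 to 0.52).

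LHY, CCA1 and ASG4 were compared with each other through the difference of their changes against CA plants, which takes out the constant offset of each probe set but not how steeply it responds or its floor. At 4 h the LHY change minus the CCA1 change was -1.32 ± 0.30 (SE), and minus the ASG4 change it was -0.97 ± 0.47. At 2 h ASG4 was ahead, 1.06 ± 0.16 further down than LHY and 0.95 ± 0.18 further down than CCA1. At 12 h the LHY and CCA1 changes differed by -0.01 ± 0.31. Of 18 such differences, which share 3 genes and the same 3 CA arrays, 10 showed no overlap between groups. Among single probe sets the share free of overlap with CA arrays was 33.1% (2 h) to 50.5% (12 h). The share over pairs of genes was not computed, and nothing is read from this count. A two-sided exact permutation test of 3 arrays against 3 cannot go below p = 0.1, so these differences are given with their SE as descriptions.

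**Figure D4:**
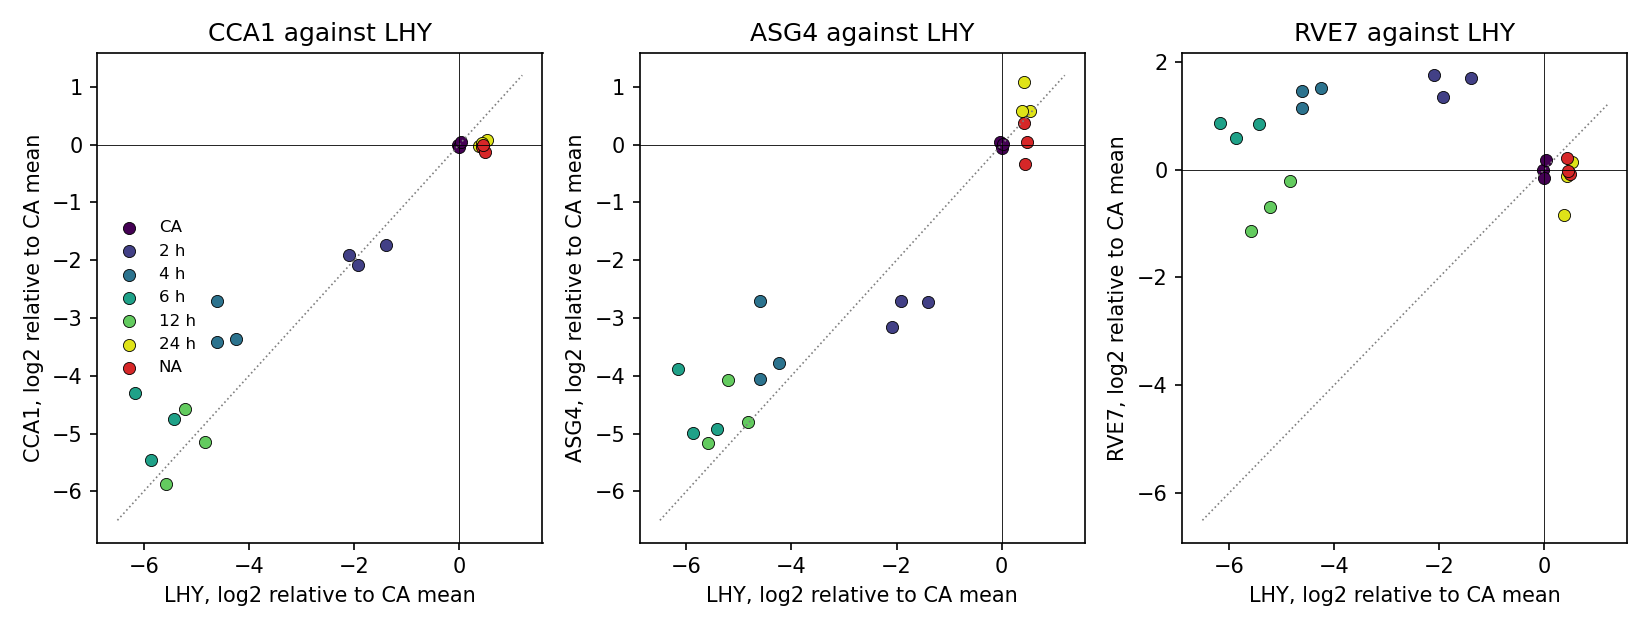
Value of CCA1, ASG4 and RVE7 (vertical axes) against that of LHY (horizontal axes) on each of the 21 arrays, both as log2 difference from the gene's own CA mean, coloured by group, with a dotted line of equal change. The 4 h arrays lie above the line for CCA1 and ASG4 and the 2 h arrays lie below it for ASG4, while RVE7 runs around a loop.

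Over the 21 arrays the values of LHY and CCA1 correlated at r = 0.97, those of LHY and ASG4 at 0.95 and those of CCA1 and ASG4 at 0.97. These coefficients rest mostly on the 7 group means, which the genes share through their common course. After the group means were taken out, the deviations of CCA1 and ASG4 still correlated at 0.78, whereas LHY gave 0.13 with CCA1 and -0.13 with ASG4. Replicate 3 at 4 h and replicate 1 at 6 h were above their group means for CCA1 (by 0.45 and 0.54) and for ASG4 (by 0.80 and 0.72), while LHY deviated by -0.13 and -0.34 there. At 12 h replicate 3 was high for CCA1 and ASG4 (0.62 and 0.61) and replicate 1 low (-0.67 and -0.49). RVE7 values correlated at -0.22 with LHY, -0.10 with CCA1 and -0.30 with ASG4 over the 21 arrays, and its deviations from the group means at 0.46, 0.45 and 0.28. Arrays share library and normalization across genes, and these values are descriptions.

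Over all groups LHY spanned 6.27 on the log2 scale between its lowest and highest group mean, and only 5 of the 31329 probe sets had a larger span. The spans were 5.43 for ASG4 and 5.23 for CCA1, with 0.0511% and 0.083% of probe sets above them. RVE7 spanned 2.28, with 2.71% above it. The residual SD within groups was 0.26 for LHY, 0.30 for RVE7, 0.37 for CCA1 and 0.46 for ASG4. Only 9.01% of probe sets had a larger residual SD than ASG4.

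Of 51 other clock and output genes in 8 lists, 13 were measured, 6 through the platform annotation and 7 only through the study's list of changed transcripts, for which a call against CA plants came with the naming. Among the 6 REVEILLE relatives, the MYB family of ASG4 and RVE7, RVE5 and RVE6 were measured and neither was called in any comparison with CA or NA plants. RVE5 differed from CA plants by -0.22, -0.36, -0.49 and -0.27 from 2 h to 12 h with adjusted p-values of 0.237, 0.0464, 0.00639 and 0.109, and by 0.61 at 24 h (adjusted p = 0.00115). RVE6 differed by -0.52, -0.52, -0.42 and -0.32 from 2 h to 12 h, with adjusted p-values of 0.00459 to 0.0491. LNK co-activators and CK2 regulatory subunits, which act with RVE8 and on CCA1 respectively, had 0 of 4 members measured each.

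Among other clock components, 1 of 5 pseudo-response regulators and 1 of 4 evening complex genes were measured. PRR9, a morning pseudo-response regulator, read 11.87, 11.98 and 11.98 in CA plants, 11.49, 11.28 and 11.29 after 2 h, 10.28, 10.11 and 11.33 after 4 h and 9.90, 9.01 and 8.51 after 6 h. At 12 h the PRR9 arrays were down to 4.71, 5.56 and 4.43, and at 24 h they were at 11.42, 10.95 and 11.57. The PRR9 change against CA plants was -1.37 after 4 h, -2.80 after 6 h and -7.05 after 12 h (adjusted p = 1.01e-09). PRR9 fell by 4.24 from 6 h to 12 h (adjusted p = 2.45e-05), the interval in which LHY, CCA1 and ASG4 were not called. Replicate 3 at 4 h was the highest of its group for PRR9 as for CCA1 and ASG4.

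ELF3, the scaffold of the evening complex, had CA arrays at 9.44, 9.44 and 9.56 and differed from them by 0.59 at 6 h and 0.69 at 12 h, under 2-fold. ELF3 fell by 1.41 at 24 h (adjusted p = 1.70e-06) and the log2 change of NA against CA plants was -2.22 (adjusted p = 2.24e-08). Thus ELF3 was higher in CA than in NA plants, where LHY, CCA1 and ASG4 were not called.

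GI, an evening gene whose protein works with LOV-domain F-box proteins, fell by 1.06 at 2 h against CA plants and differed from them by 0.50 at 6 h and 0.22 at 12 h, neither of which was called. Against NA plants the GI difference was -0.17 at 2 h, not called, and GI was higher by 1.39 at 6 h (adjusted p = 7.61e-05) and by 1.11 at 12 h. FKF1, such an F-box protein, fell by 1.16 at 2 h and rose by 2.47 at 6 h (adjusted p = 8.56e-06) and 2.08 at 12 h against CA plants, when LHY was lowest. FKF1 arrays were dim, at 4.82, 4.60 and 4.33 in CA plants and 3.55, 3.52 and 3.20 at 2 h. Whether background bounds these FKF1 levels was not tested. FBH3 belongs to the bHLH family in which FBH1 binds the CCA1 promoter. Of 9 genes in a hand-made list of factors for the CCA1 or LHY promoter, only FBH3 was measured. Whether FBH3 itself acts there was not tested. FBH3 rose at every time, by 1.21 at 2 h to 2.43 at 12 h, and was 2.07 higher in NA than in CA plants.

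Of 15 outputs that CCA1 or LHY bind, 6 were measured. COR27, a cold-induced evening gene, read 9.81, 9.46 and 9.91 in CA plants, 5.55, 4.70 and 4.93 after 2 h, 6.10, 5.0 and 5.85 after 4 h, and 9.78, 9.12 and 9.42 at 6 h. COR27 read 10.43, 9.97 and 10.25 at 12 h, then 6.17, 5.29 and 5.52 after 24 h, and in NA plants 5.24, 4.64 and 5.46. COR27 was thus low after 2, 4 and 24 h and in NA plants, without overlap with the CA arrays. COR27 rose by 3.78 from 4 h to 6 h (adjusted p = 2.65e-05) and fell by 4.56 from 12 h to 24 h (adjusted p = 5.36e-08). COR28, its close relative, fell by 3.50 at 2 h and rose by 2.65 from 4 h to 6 h (adjusted p = 0.00474).

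GRP7, an evening RNA-binding protein, fell by 1.55 at 2 h, differed by 0.33 at 6 h and by -0.05 at 12 h, and fell by 2.64 at 24 h (adjusted p = 1.14e-09), all against CA plants. CAB2, a light-harvesting protein gene with near-identical neighbours in the genome that its probe set may also read, fell by 1.06 after 2 h. Its log2 change was -2.04 after 6 h, -4.05 after 12 h (adjusted p = 2.22e-09) and -1.48 after 24 h. Both CDF5 probe sets, for a Dof repressor of flowering genes, fell at 2 h (log2 changes -1.38 and -1.13) and at 12 h (-1.18 and -1.63). PIF4, a growth-promoting bHLH factor, rose by 1.91 to 2.44 at every time. Of the 14 probe sets of these 13 genes, 10 were called against CA plants after 2 h, 6 after 4 h, 6 after 6 h, 8 after 12 h, 7 after 24 h and 8 in NA plants, and none was called between 24 h and NA plants. Over all probe sets the shares called against CA plants were 4.48%, 5.83%, 7.73%, 9.17%, 8.52% and 7.9% in that order. Since 7 of the 14 were named through the study's list of changed transcripts, their calls against CA plants came with the naming and nothing is read from these counts.

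**Figure D5:**
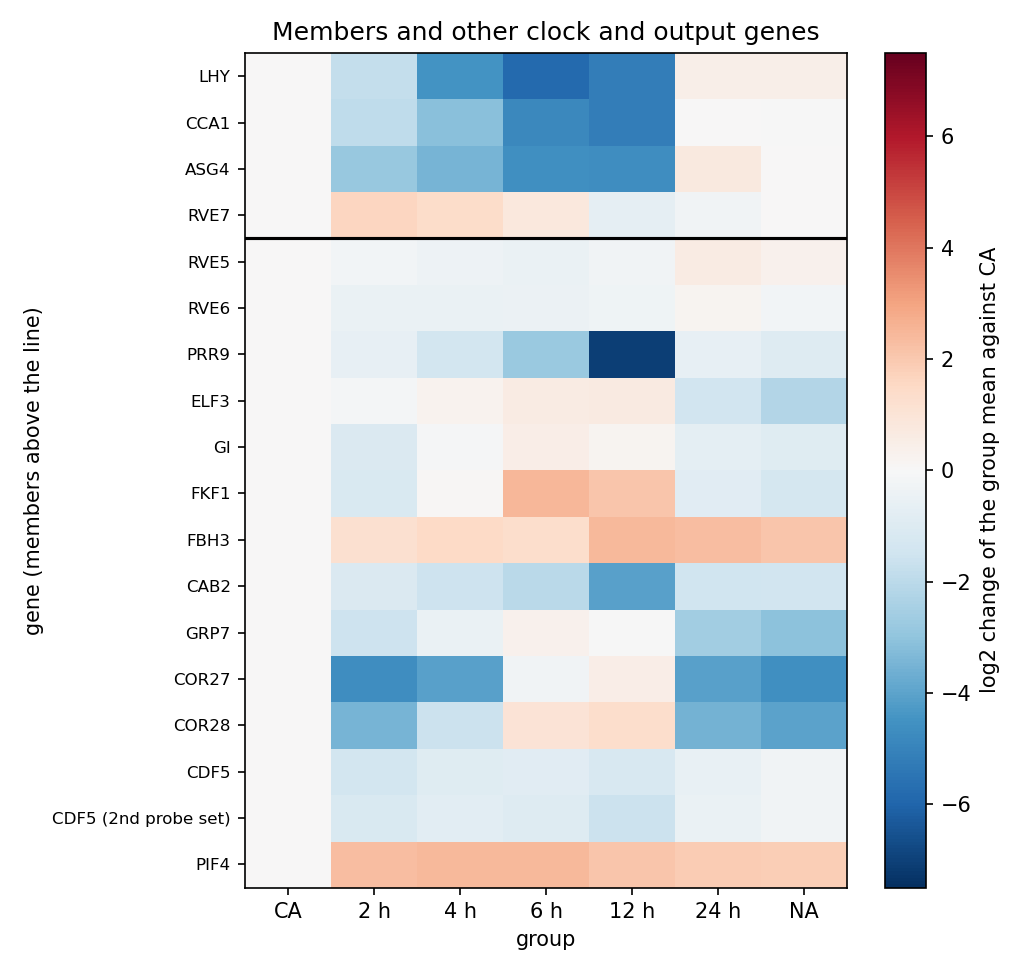
Log2 change of the group mean against CA plants (colour, blue lower and red higher) for the 4 genes, above the line, and the 14 probe sets of 13 other clock and output genes, in the 7 groups (columns). PRR9 reaches -7.05 at 12 h, and COR27 and COR28 are low at 2 h, 4 h, 24 h and in NA plants.

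The genes whose course was most like that of each member were sought by Pearson correlation over the 21 arrays. Candidates were 3539 probe sets with 1 gene symbol in the platform annotation and group means spanning over 1. The 4 members and all genes named only through the study's list, such as PRR9, were not candidates. Among themselves LHY, CCA1 and ASG4 correlated at 0.95 to 0.97. AT1G26790, annotated as a Dof-type zinc finger protein, was among the 5 most alike for LHY (r = 0.97), CCA1 (0.95) and ASG4 (0.97). Its group means were 10.78 in CA plants, 7.31 after 2 h, 5.38 after 4 h, 4.81 after 6 h, 5.32 after 12 h, 10.51 after 24 h and 10.62 in NA plants. AT1G26790 spanned 5.97, between the spans of ASG4 and LHY. AT3G57020 (r = 0.97 with LHY and 0.98 with CCA1) and AT5G55570 (0.95 with both) were among the 5 for LHY and for CCA1.

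LHY was also followed by GR1, a glutathione reductase gene, at r = 0.97, the highest for LHY, over a span of 1.18, and by AT4G27360 (r = 0.95), whose means fell from 7.75 in CA plants to 3.42 at 6 h. AT3G09450 (r = 0.97), with means between 5.02 at 12 h and 10.85 in CA plants, and AT5G35970 (0.95) completed the 5 for CCA1. For ASG4 the most alike was AT1G19490, annotated as a bZIP family protein (r = 0.99), with means of 9.96 in CA plants, 8.38 at 2 h, 7.59 at 12 h and 10.54 at 24 h. AT1G19490 was highest at 24 h, as was ASG4. AT5G54130 (0.97), AT5G42760 (0.97) and MTP11, a metal transporter gene (0.97), followed.

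Opposed courses reached r = -0.95 for LHY with AT1G75800, a thaumatin family gene, AT2G15880, annotated as a leucine-rich repeat and extensin family protein, and Fes1B. Fes1B, a co-factor of HSP70 chaperones, rose from a mean of 7.20 in CA plants to 10.93 at 6 h and was at 7.07 at 24 h. For CCA1 they were AT1G75800 (-0.95), AT4G05150 (-0.94) and AT1G28070 (-0.93), and for ASG4 AT5G08520, a MYB family gene (-0.95), AT4G14270 (-0.94) and Fes1B (-0.94). These genes were high where the members were low.

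For RVE7 the highest coefficients were lower. AT5G12050 (r = 0.83), AT2G20250 (0.82), GH3.3, an auxin-conjugating enzyme gene (0.81), AT3G21330 (0.81) and RTFL13, of the ROTUNDIFOLIA-like family (0.81), were the most alike. GH3.3 means were 7.34 in CA plants, 9.31 after 2 h, 9.57 after 4 h, 9.14 after 6 h, 7.31 after 12 h and 6.92 after 24 h. AT3G21330 had its highest mean, 8.22, at 2 h, and its lowest, 4.51, at 12 h, as RVE7 did. The most opposed were AT1G06100 (-0.84), AT1G69523 (-0.84) and AT1G50290 (-0.82), each with its lowest mean at 2 h. The correlations rest on 7 group means with 3 arrays each and are given with no test.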

How the data were processed

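RNA of 21 rosette pools was hybridised to Affymetrix Arabidopsis Gene 1.0 ST arrays. The deposited values are log2 expression values, obtained by the authors through RobiNA's RMA, which subtracts background, equalises array distributions by quantiles and summarises probe sets. The RobiNA version was not given in the sources used here. From 38408 probe sets, 7079 unnamed ones at the head of the table were set apart. Values were used unscaled in limma 3.58.1 under R 4.3.3, in a single lmFit and eBayes fit with 7 group coefficients and 14 residual degrees of freedom, checked on simulated data. Adjusted p-values cover all 31329 probe sets within a comparison. Exact permutation tests used scipy 1.17.1. Members and lists were chosen with earlier results of these data known. Named genes are the 4 members, list genes that were called against CA plants or are REVEILLE, LNK, PRR or evening complex genes, and per member the 5 most alike and 3 most opposed genes. Names came from the platform annotation, with 16722 probe sets of a single gene, or from the 1997 entries in hand of the study's list of changed transcripts, whose fold changes and p-values were not used. Probe sequences were not used, so reads shared by related genes such as CCA1 and LHY were not tested. A planned description of member sequences was not run. With 3 arrays per group, their number limits the precision.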

Additional observations from a re-analysis of the deposited data

How the results depend on the processing

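The 15 comparisons of the 4 genes were repeated with the whole table, without dim probe sets (mean below 6), with cyclic loess, with median centring, with the replicate number as a block, with only the groups compared, with a trended robust prior and without each array in turn. None of these reversed a direction that was called, and every count of called members against CA and against NA plants, and from 12 h to 24 h, kept its value. From 2 h to 4 h the count of 1 became 2, CCA1 being added, without dim probe sets, with cyclic loess, with the replicate block and with the trended robust prior, and it ranged from 1 to 2 without single arrays. From 4 h to 6 h the count of 2 became 1 with the whole table and 0 with only the groups compared, and ranged from 0 to 1 without arrays of these groups. From 6 h to 12 h the count of 1 became 0 with only the groups compared. Fewer arrays estimate the spread in that setting. The cause of these changes was not tested. The arrays come from 3 independent biological replicates, but no source used here says that a number marks a shared experiment, so the block was kept as an alternative. Deviations of same-numbered arrays correlated at -0.08 to 0.35 (median 0.14, 41 of 63 pairs over 0.1), 19 of 21 arrays were closest to their own number, and the block moved counts of calls over all probe sets by factors of 0.933 to 1.37. Counts of other clock and output genes stayed within 1.5 times their values. Groups of 3 arrays limit what differences near 2-fold can be called. LHY, CCA1 and ASG4 at 6 h and 12 h lay at the 27.65th to 41.8th percentile of all probe sets, and whether background bounds those levels was not tested.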
